A study of Mus musculus with 6 samples.

Results

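The genes described here are 9 regulators of the G1 phase of the cell cycle in mouse embryonic stem (ES) cells: the INK4 family (Cdkn2a, which also encodes ARF, Cdkn2b, Cdkn2c and Cdkn2d), the p27 gene Cdkn1b, the D-type cyclins Ccnd1, Ccnd2 and Ccnd3, and the E-type cyclin Ccne1. All probe sets annotated to exactly 1 of these symbols were taken, which gave 21 of the 45101 probe sets on the array, for 9 of the 18193 genes with a probe set of their own. Cdkn2a, Cdkn2b, Cdkn2c and Cdkn2d have 1 probe set each, Cdkn1b and Ccne1 have 2, Ccnd1 and Ccnd3 have 3, and Ccnd2 has 7. No probe set shared with another symbol was annotated to a member.

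The study hybridised total RNA from 3 ES cell clones of a 129/B6 hybrid background to 6 Affymetrix arrays, 1 array with 4-hydroxytamoxifen (OHT+) and 1 without it (OHT-) for each clone. Clone 3031 is labelled wild type for Yaf2 (Yaf2wt), and clones 3086 and 3087 are labelled as Yaf2 knockdowns in their titles (Yaf2kd) and as mutants elsewhere. OHT+ cells of all 3 clones received 0.8 µM 4-hydroxytamoxifen over 24 hours, meant to deplete Rybp, so the groups are Yaf2wt OHT- and Yaf2wt OHT+ (1 array each) and Yaf2kd OHT- and Yaf2kd OHT+ (2 arrays each). Yaf2wt is thus 1 clone, no array has OHT on cells labelled as keeping Rybp, and the sources used here do not state the Rybp allele, the knockdown method, the time of harvest or each sample's culture surface.

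Rybp and Yaf2 are homologous subunits of variant Polycomb repressive complex 1, which places ubiquitin on histone H2A, and the Cdkn2a-Cdkn2b region is a classical target of Polycomb repression. D-type cyclins activate the kinases Cdk4 and Cdk6, cyclin E activates Cdk2, and both phosphorylate the retinoblastoma proteins to let cells enter S phase. INK4 proteins bind Cdk4 and Cdk6 and keep them from the D cyclins, p27 inhibits cyclin E-Cdk2, and ARF stabilises p53 through Mdm2. ES cells are known for a short G1 phase with cyclin E activity that varies little over the cycle.

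Variant Polycomb complexes are known to be recruited to unmethylated CpG-rich start sites, so the start regions of the Cdkn2a-Cdkn2b locus and of Ccne1, the member with the largest difference between Yaf2kd and Yaf2wt among the brighter probe sets, are shown. Each line gives the 250 bases before a transcription start on the minus strand, from RefSeq on assembly GRCm38.p6, written 5′ to 3′, with CpG dinucleotides in capitals. They are chr4:89294620-89294869 (the Arf start of Cdkn2a), chr4:89282193-89282442 (the Ink4a start of Cdkn2a), chr4:89311033-89311282 (Cdkn2b) and chr7:38107491-38107740 (Ccne1).
Cdkn2a Arf start: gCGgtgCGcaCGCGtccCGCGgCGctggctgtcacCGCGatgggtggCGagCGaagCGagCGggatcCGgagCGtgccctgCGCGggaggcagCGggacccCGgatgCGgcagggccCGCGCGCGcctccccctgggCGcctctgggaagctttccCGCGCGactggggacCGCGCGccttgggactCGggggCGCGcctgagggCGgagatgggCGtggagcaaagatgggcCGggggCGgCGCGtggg
Cdkn2a Ink4a start: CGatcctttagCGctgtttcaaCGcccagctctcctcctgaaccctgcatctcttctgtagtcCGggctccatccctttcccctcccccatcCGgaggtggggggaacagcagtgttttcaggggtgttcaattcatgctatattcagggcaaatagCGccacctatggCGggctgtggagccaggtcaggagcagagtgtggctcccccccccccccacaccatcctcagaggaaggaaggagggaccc
Cdkn2b start: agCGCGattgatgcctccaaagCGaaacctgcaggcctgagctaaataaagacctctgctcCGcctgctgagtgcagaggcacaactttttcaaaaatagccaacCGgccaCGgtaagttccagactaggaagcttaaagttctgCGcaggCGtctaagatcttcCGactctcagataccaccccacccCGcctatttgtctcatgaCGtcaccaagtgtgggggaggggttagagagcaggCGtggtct
Ccne1 start: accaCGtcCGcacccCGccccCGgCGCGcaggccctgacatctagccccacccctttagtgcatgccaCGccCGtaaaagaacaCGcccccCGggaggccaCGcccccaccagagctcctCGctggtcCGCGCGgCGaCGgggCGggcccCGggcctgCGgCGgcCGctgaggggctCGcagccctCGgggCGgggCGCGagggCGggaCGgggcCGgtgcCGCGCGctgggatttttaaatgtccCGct

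Counted from 250 bases before to 50 after the start, the Arf window holds 45 CpG dinucleotides, more than 98.1% of the 32851 promoter windows in the table, whose median is 7. The Ink4a window of the same gene holds 12, more than 60.4% of all windows. Cdkn2b, the neighbouring gene, holds 18 (more than 70.3%), and Ccne1 holds 41 (more than 96.5%). Windows were matched for 7 of the 9 genes, and the 10 windows of these genes hold between 8 and 45 CpG. Cdkn2a lies at chr4:89274473-89294619 and Cdkn2b at chr4:89306289-89311032 in the same assembly.

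The labels were checked against the arrays. Both Yaf2 probe sets were lower on every Yaf2kd array (1429839_a_at 238 to 297, 1423399_a_at 221 to 254) than on the Yaf2wt arrays (769 to 816 and 601 to 658). The 2 Rybp probe sets, annotated together with the pseudogene Rybp-ps, moved in opposite directions: 1421111_at was at 1785 to 2262 without OHT and 53.9 to 102 with it, and 1428219_at was at 180 to 336 without OHT and 2796 to 3443 with it, so neither measures how much intact Rybp RNA was left. All 12 ES cell markers lay above the middle of mean signal, and 1 of them, Fbxo15, was called with OHT (1.36 ± 0.10, limma adjusted p 8.18e-04). Of 19 measured fibroblast markers, which a feeder layer could bring in, 5 (Col3a1, Pdgfra, Lum, Dcn and Twist2) lay below it. Values are linear intensity, every array has a median of 102, and differences are log2. Below a mean intensity of 96.6, the middle of mean signal over the array, the median SD between replicate arrays was 0.75 (log2), against 0.19 above it. Of the 21 member probe sets 15 lie above that middle and are called the brighter ones here. In bulk RNA, fewer cells with a transcript and less transcript per cell cannot be told apart.

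None of the 21 member probe sets passed limma's test with Benjamini-Hochberg adjustment at 0.05 in any of 3 comparisons over 45037 probe sets. The comparisons were OHT+ against OHT- over the 3 clones (63 called on the whole array, 0.14%), Yaf2kd against Yaf2wt over clone means (0 called, lowest adjusted p 0.210), and the difference of the OHT effects between Yaf2kd and Yaf2wt (0 called). With the clone as a replicate block, the OHT comparison called 101 probe sets on the array and again no member. At an unadjusted p under 0.05 the members had 2 of 21 with OHT (both Ccnd1, both lower) against 7.99% of all probe sets, 1 of 21 for Yaf2 status (Ccne1, higher) against 6.4%, and 1 of 21 for the difference of the OHT effects (Ccne1, higher) against 2.39%. The median member difference was 0.07 with OHT (13 higher, 8 lower) beside -0.01 over all probe sets, and 0.15 for Yaf2kd minus Yaf2wt (12 higher, 9 lower) beside 0.00.

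**Figure D1:**
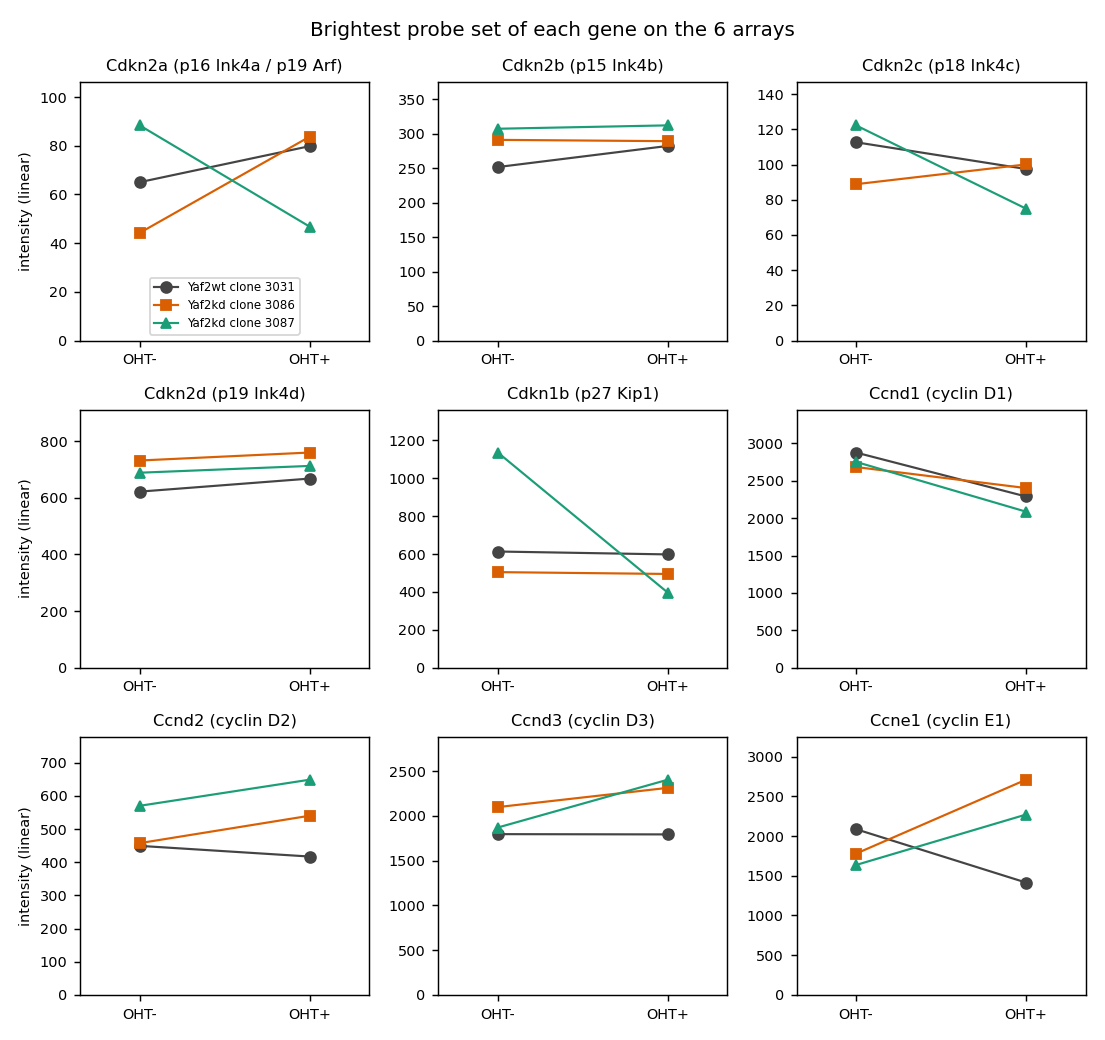
Linear intensity (y axis, from 0) of the brightest probe set of each of the 9 genes, without and with OHT (x axis); each line joins the 2 arrays of 1 clone. Ccnd1 is lower with OHT in all 3 clones, the Yaf2wt clone is lowest for Cdkn2d and Ccnd3, and Cdkn1b is high on 1 array of clone 3087 (1136).

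Cdkn2a, the gene of the inhibitor p16 and of ARF, had a dim signal on all 6 arrays. Clone 3031 read 65.1 without OHT and 79.8 with it, clone 3086 read 44.2 and 83.7, and clone 3087 read 88.4 and 46.8, so every array was below the array median of 102. The clones did not share a direction with OHT: the log2 differences were 0.30, 0.92 and -0.92. The OHT difference was 0.10 ± 0.45 (SE; 95% interval -0.90 to 1.10, limma adjusted p 0.975), and Yaf2kd minus Yaf2wt was -0.20 ± 0.52. The OHT interval gives the differences compatible with these dim values and is not a limit of detection. A difference beyond it could also miss the adjusted threshold. The sign of the OHT difference turns without clone 3086 (-0.31). The sources used here do not say which product of the gene, p16 or ARF, the probe set reads.

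Cdkn2b, the gene of the inhibitor p15 beside Cdkn2a, was steady across the arrays. It read 251 (OHT-) and 282 (OHT+) in clone 3031, 291 and 289 in clone 3086, and 307 and 312 in clone 3087. The highest array was 1.24 times the lowest, and the OHT groups overlapped. The OHT difference was 0.06 ± 0.16 (95% interval -0.30 to 0.42, limma adjusted p 0.956). All 4 Yaf2kd arrays were above both Yaf2wt arrays, by 0.17 ± 0.23 over clone means (interval -0.35 to 0.69, limma adjusted p 0.943).

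Cdkn2c, the gene of p18, lay at the middle of mean signal. It read 113 and 97.5 without and with OHT in clone 3031, 88.9 and 100.1 in clone 3086, and 122 and 75.0 in clone 3087. OHT+ and OHT- arrays overlapped, with an OHT difference of -0.25 ± 0.31 (limma adjusted p 0.892), and so did the Yaf2 groups (-0.14 ± 0.42).

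Cdkn2d, the gene of the INK4 protein p19, read 622 and 668 without and with OHT in clone 3031, 732 and 759.9 in clone 3086, and 689 and 713 in clone 3087. It was higher with OHT in all 3 clones (as were 15% of all probe sets), by 0.10, 0.05 and 0.05, and the OHT groups overlapped (0.07 ± 0.11, limma adjusted p 0.917). The Yaf2kd arrays, at 723 ± 30.2 (SD, n = 4), were all above the Yaf2wt arrays, at 645 ± 32.6 (n = 2). The SDs of Yaf2 groups, here and below, are over arrays, with 2 arrays per clone, and not over clones. That difference was 0.17 ± 0.17 and did not pass (limma adjusted p 0.910).

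Cdkn1b, the gene of p27, showed 1 array apart from the other 5. The brighter probe set (1434045_at) read 613 and 598 without and with OHT in clone 3031, 505 and 495 in clone 3086, and 1136 and 396 in clone 3087. The OHT- array of clone 3087 was thus 1.85 times the next highest, and the OHT+ array of the same clone was the lowest. The dimmer probe set (1419497_at) read 102 and 72.4, 64.1 and 58.4, and 137 and 42.9 in the same order. Both probe sets put the same arrays highest and lowest, and their log2 values correlated at r = 0.94 over the 6 arrays, which are the same RNA samples read with other probes.

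The OHT difference of Cdkn1b by clone was -0.04, -0.03 and -1.52 for 1434045_at and -0.49, -0.13 and -1.68 for 1419497_at. Both probe sets were lower with OHT in all 3 clones, as were 16.2% of all probe sets. Over the clones the differences were -0.53 ± 0.28 and -0.77 ± 0.42 (limma adjusted p 0.684 and 0.692). Without clone 3087 they were -0.03 and -0.31. The OHT- array of clone 3087 exceeded the median of the other 5 arrays by 1.17 for 1434045_at, a size reached by 46 of the 22519 brighter probe sets on that array (0.204%). That array was picked because it stood apart, so the share is not a test. By the same measure 1434045_at lay between -0.59 and 0.28 on the other arrays. The Yaf2 groups of 1434045_at overlapped (-0.07 ± 0.21).

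Among 1189 genes at or above the array median with a range of at least 1 (log2), the 2 whose pattern over the 6 arrays was most like that of Cdkn1b were Mageh1 (r = 0.97) and Tmem126b (r = 0.97). Mageh1 read 441 on the OHT- array of clone 3087 and 200 on its OHT+ array, and Tmem126b read 261 and 117. Both were highest and lowest on the same arrays as Cdkn1b, which follows from picking them by that pattern. Of the 1189 genes, 8 reached an r of at least 0.9, taken over 6 arrays that share their RNA with Cdkn1b.

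**Figure D2:**
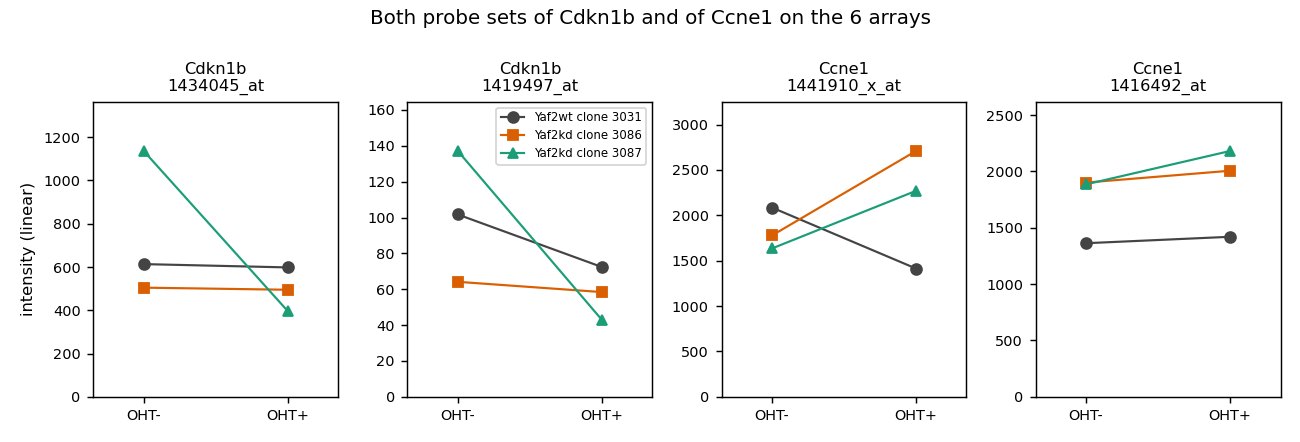
Linear intensity (y axes, from 0, 1 scale per panel) of both probe sets of Cdkn1b and both of Ccne1 without and with OHT; lines join the 2 arrays of a clone. The 2 Cdkn1b probe sets share the high OHT- array and the low OHT+ array of clone 3087, whereas for Ccne1 1416492_at puts both Yaf2wt arrays lowest and 1441910_x_at does not.

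The other CIP/KIP inhibitors were measured beside Cdkn1b. Cdkn1c, the imprinted gene of p57, read 631 and 1314 without and with OHT in clone 3031, 661 and 1679 in clone 3086, and 802 and 1647 in clone 3087. It rose with OHT by 1.15 ± 0.11 (limma adjusted p 0.00456), with groups that did not overlap. That call was lost without an intensity trend in the variance prior (adjusted p 0.421), without the Yaf2wt OHT+ array (0.114), the Yaf2wt OHT- array (0.0832), clone 3031 (0.0767) or the OHT+ array of clone 3086 (0.0629). The difference itself was 1.15 without the trend, which cannot alter it. Without either Yaf2wt array or clone 3031 it was 1.19, in each case the same estimate from the Yaf2kd clones. Without the OHT+ array of clone 3086 it was 1.13. Cdkn1a, the gene of p21, was at 651 to 689 without OHT and 777 to 926 with it, a difference of 0.31 ± 0.12 that did not pass (limma adjusted p 0.555).

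Ccnd1, the gene of cyclin D1, was lower with OHT in all 3 clones by 2 of its 3 probe sets. The brightest probe set (1417420_at) read 2878 and 2290.2 without and with OHT in clone 3031, 2684 and 2403 in clone 3086, and 2753 and 2087 in clone 3087. All OHT+ arrays, at 2260 ± 160.1 (SD, n = 3), were below all OHT- arrays, at 2772 ± 98.3 (n = 3). The second probe set (1448698_at) read 1479.6 and 1291, 1588 and 1288, and 1469 and 1303 in the same order, and its groups did not overlap either.

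The OHT difference of Ccnd1 was -0.30 ± 0.09 for 1417420_at (95% interval -0.50 to -0.10, p 0.00846, limma adjusted p 0.412) and -0.22 ± 0.09 for 1448698_at (p 0.0378, limma adjusted p 0.593). Neither passed, and with the clone as a block the adjusted p was 0.311 and 0.486. The third probe set (1417419_at) read 861 and 901, 741 and 1034, and 1447 and 1187, with clones on both sides of 0 (0.06, 0.48 and -0.29) and a difference of 0.09 ± 0.21. The first and second correlated at r = 0.81 over the 6 arrays, and the third correlated with them at -0.20 and -0.32, so the probe sets of Ccnd1 disagree on OHT.

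Of the 21 member probe sets, these 2 of Ccnd1 (9.52%) had all OHT+ arrays below all OHT- arrays, as did 6.4% of all 45037. None had all OHT+ arrays above, where 6.13% of all did. The share among the members is close to that of the array. Without clone 3086 the count below was 5 (17% of all probe sets), and without clone 3031 it was 4 (17.7% of all), through Cdkn1b and, in the first case, Cdkn2c. Summed early differentiation markers (14 genes, 6 of them below the middle of mean signal) were at 5532 to 7867 with OHT and 7065 to 10000.1 without it, and summed fibroblast markers at 22145 to 26300.2 with OHT and 22037 to 26349 without. Of the 19 fibroblast markers 14 were higher with OHT, with a median of 0.34 and 0 called. Summed ES cell markers (12 genes) did not overlap, at 118363 to 126530 with OHT and 111315 to 117693 without. Of these 12 genes 8 were higher with OHT and 4 lower, with a median of 0.16 and 1 called. In all these sums of linear values the brightest genes weigh most, so a sum does not describe its genes evenly. The part of these markers in the Ccnd1 values was not tested.

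**Figure D3:**
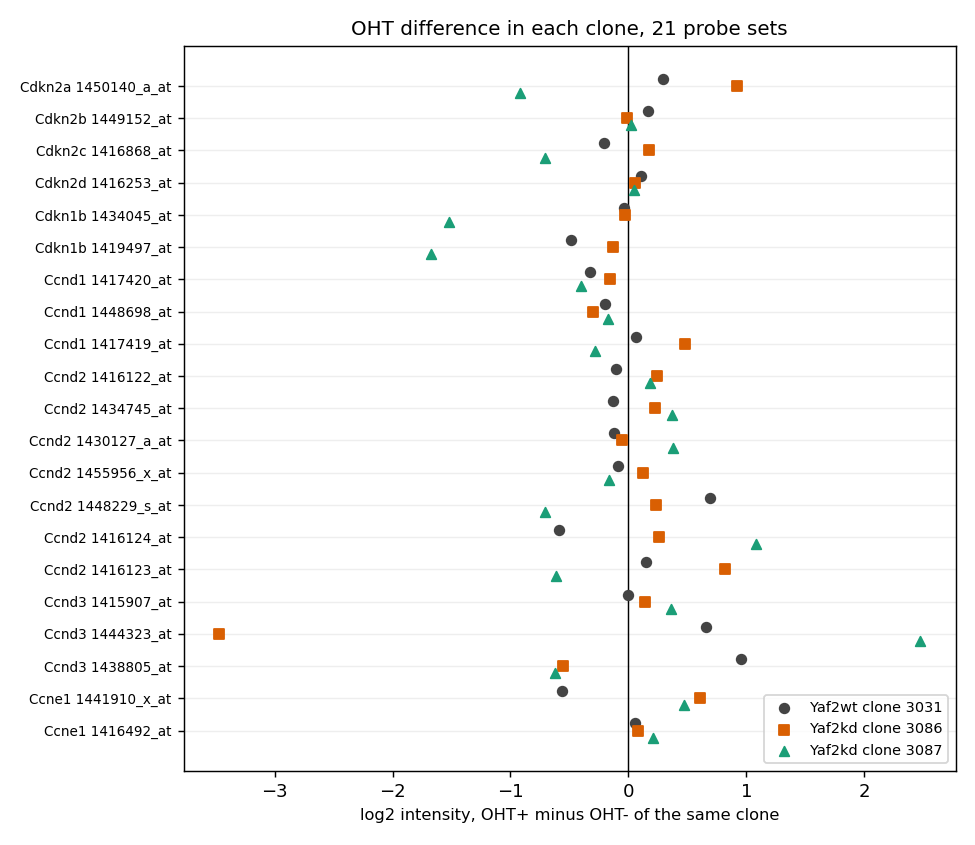
The log2 difference OHT+ minus OHT- (x axis) in each of the 3 clones for all 21 probe sets, 1 line per probe set and 1 symbol per clone. Ccnd1 1417420_at and 1448698_at lie below 0 in all 3 clones within a narrow range, Cdkn1b is farthest below 0 in clone 3087, and the dim probe sets (such as Ccnd3 1444323_at, -3.47 to 2.48) scatter widely.

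Ccnd2, the gene of cyclin D2, has 5 brighter probe sets and 2 dim ones. The brightest (1416122_at) read 449.5 and 417 without and with OHT in clone 3031, 458 and 540.4 in clone 3086, and 570.3 and 649 in clone 3087. All Yaf2kd arrays were above both Yaf2wt arrays. Probe set 1430127_a_at read 348 and 319.5, 429 and 413, and 408 and 529 in the same order, a wider gap. Probe set 1455956_x_at read 197 and 185, 199 and 217, and 235 and 209.9, again with every Yaf2kd array higher. The x in its name marks, in Affymetrix naming, probes that can also match other sequences.

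Yaf2kd minus Yaf2wt was 0.34 ± 0.20 for 1416122_at (limma adjusted p 0.823), 0.41 ± 0.20 for 1430127_a_at (0.799) and 0.17 ± 0.28 for 1455956_x_at. For 1434745_at, at 404 to 442 in Yaf2wt and 417 to 538 in Yaf2kd, the groups overlapped (0.15 ± 0.19). So did those of 1448229_s_at, at 103 to 166 and 106 to 238. Over the 6 arrays the 5 brighter probe sets correlated pairwise at r from -0.26 (1434745_at with 1448229_s_at) to 0.86 (1416122_at with 1430127_a_at), so they do not all share a pattern. The dim probe sets read 17.4 to 51.1 (1416124_at) and 15.9 to 53.3 (1416123_at) over the 6 arrays. The OHT difference of 1416122_at was 0.11 ± 0.15, with -0.11 in clone 3031 and 0.24 and 0.19 in the Yaf2kd clones. The 2 genes most like 1416122_at over the arrays were Sftpb (r = 0.98) and Fes (r = 0.97).

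Ccnd3, the gene of cyclin D3, was brightest with 1415907_at, which read 1795 and 1792 without and with OHT in clone 3031, 2097 and 2312 in clone 3086, and 1869 and 2403 in clone 3087. The 4 Yaf2kd arrays (2170 ± 238, SD) were above both Yaf2wt arrays (1793 ± 2.10). Over clone means the difference was 0.27 ± 0.13 (95% interval -0.01 to 0.54, limma adjusted p 0.779). The OHT difference was 0.17 ± 0.10 (limma adjusted p 0.722). The other Ccnd3 probe sets are dim, at 14.9 to 165 (1444323_at) and 23.5 to 72.0 (1438805_at), and overlapped in both comparisons.

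Ccne1, the gene of cyclin E1, had the largest Yaf2 difference among the brighter member probe sets. Probe set 1416492_at read 1363 and 1419.9 without and with OHT in clone 3031, 1901 and 2006 in clone 3086, and 1885 and 2181 in clone 3087. The Yaf2kd arrays, at 1993 ± 136 (SD, n = 4), were 1.43 times the Yaf2wt arrays, at 1391 ± 40.5 (n = 2), with no overlap. Over clone means the difference was 0.52 ± 0.13 (95% interval 0.23 to 0.80, p 0.00200, limma adjusted p 0.491). The limma adjusted p was 0.890 with no intensity trend and 0.681 centred on control genes (difference 0.46). With clone as a random block over the 6 arrays it was 0.184. The correlation between arrays of a clone in that fit was -0.09, so it treats them much like separate replicates. Each Yaf2kd clone alone differed from clone 3031 by 0.54 (3087) and 0.49 (3086).

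The other Ccne1 probe set, 1441910_x_at, is the brightest of the gene by mean signal. Its x also marks probes that can match other sequences. It read 2086 and 1414 without and with OHT in clone 3031, 1778 and 2709 in clone 3086, and 1635 and 2269.8 in clone 3087. Its Yaf2 groups overlapped (0.26 ± 0.13, limma adjusted p 0.805). It was lower with OHT in the Yaf2wt clone (-0.56) and higher in both Yaf2kd clones (0.61 and 0.47). The difference between these OHT effects was 1.10 ± 0.24 (p 0.00183, limma adjusted p 1.0), and for 1416492_at the OHT differences were 0.06, 0.08 and 0.21. The probe sets correlated at r = 0.48 over the 6 arrays, and the 2 genes most like 1441910_x_at were Tekt2 (r = 0.89) and Ccm2l (r = 0.87).

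All 4 Yaf2kd arrays were above both Yaf2wt arrays for 7 of the 21 member probe sets (33.3%), from Cdkn2b, Cdkn2d, Ccnd2 (3 probe sets), Ccnd3 and Ccne1, as was the case for 9.16% of all probe sets. Among the 15 brighter member probe sets the 7 stand beside 11.3% of the brighter probe sets of the array. No member had all Yaf2kd arrays below, where 9% of all did. Since 3 of the 7 are annotated to Ccnd2, they stand for 5 genes. Without clone 3086 the count was 8 beside 21.1% of all probe sets, and without clone 3087 it was 7 beside 19.1%. Centred on 9 control genes, 3 probe sets kept the order (Ccnd2 1430127_a_at, Ccnd3 1415907_at and Ccne1 1416492_at), beside 6.51% of all.

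Since clone 3031 alone is Yaf2wt, an effect of Yaf2 and a difference between clones cannot be told apart for any of them. Summed fibroblast markers were at 22660 to 26349 on Yaf2kd arrays and 22037 to 22145 on Yaf2wt arrays. Within clone 3087 they were at 26300 with OHT and 22660 without it. Summed early differentiation markers were at 7277 to 10000.1 on Yaf2kd arrays and 5532 to 7065 on Yaf2wt arrays. Summed ES cell markers overlapped, at 111315 to 119339 and 117693 to 126530 in the same order, with 9 of 12 genes lower in Yaf2kd. Of the fibroblast markers 14 of 19 were higher in Yaf2kd and 0 were called. The part of these markers in the cyclin and inhibitor values was not tested.

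**Figure D4:**
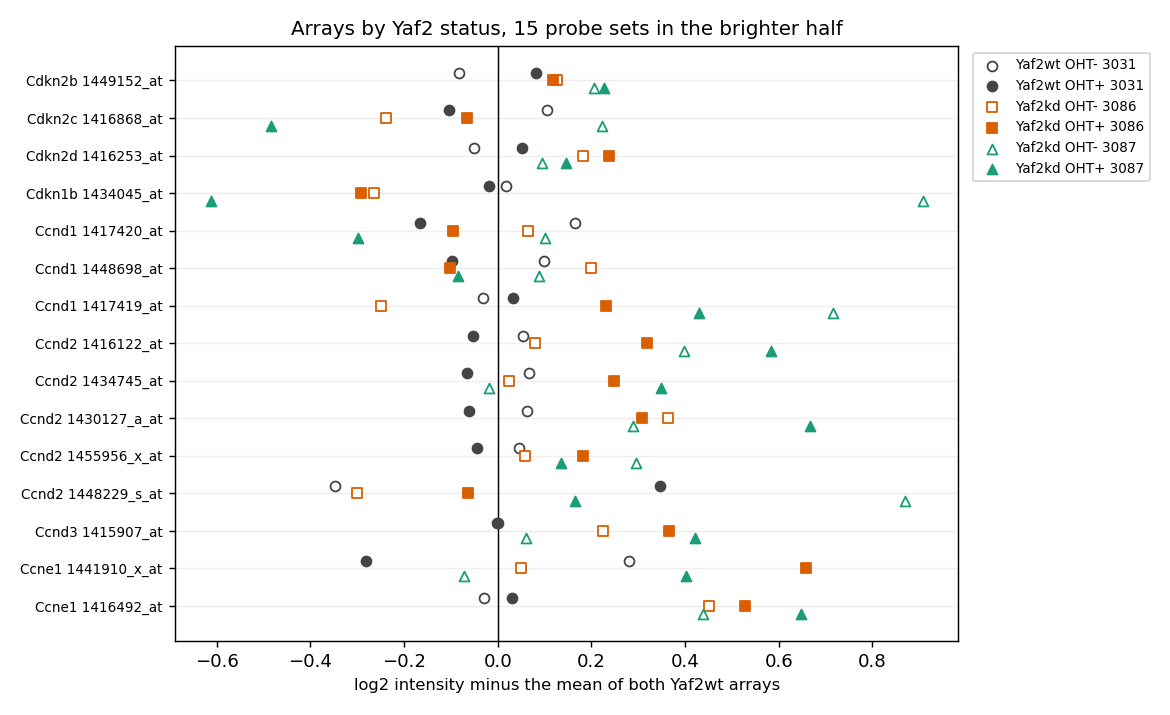
Log2 intensity of each array minus the mean of both Yaf2wt arrays (x axis) for the 15 member probe sets above the middle of mean signal; open symbols are OHT-, filled symbols OHT+. For Ccne1 1416492_at all Yaf2kd arrays lie well to the right of the Yaf2wt arrays, and for Ccnd2 1416122_at and 1455956_x_at the lowest Yaf2kd array lies just beside them.

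Genes that work with the members gave no call in either comparison apart from Cdkn1c. Of 11 other G1 cyclins and partner kinases 0 were called, with medians of -0.04 for OHT and 0.02 for Yaf2 status. Their summed signal was at 37611 to 39577 on the OHT+ arrays and 39832 to 41533 on the OHT- arrays, without overlap and with 5 genes higher and 6 lower. In this sum of linear values the brightest gene, Cks1b, weighs most. Cks1b alone was at 12567 to 15067 with OHT and 15867 to 16861 without it (-0.21 ± 0.09, limma adjusted p 0.612). The sum thus does not describe the 11 genes evenly. Cdk6, the partner of the D cyclins, read 521 and 374 without and with OHT in clone 3031, 483 and 323 in clone 3086, and 404 and 258 in clone 3087. It was lower with OHT in each clone, by 0.57 ± 0.16 over them, and did not pass (limma adjusted p 0.357).

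Genes downstream of the kinases are set beside medians over all 18193 genes of -0.00 for OHT and 0.04 for Yaf2 status. Of 13 pocket proteins and E2F factors 0 were called, with medians of -0.04 and -0.06. The 18 measured S-phase genes that E2F is known to activate had medians of 0.05 and 0.04, with 0 called and OHT differences between -0.27 and 0.14. Of 5 measured genes of the ARF-p53 axis 0 were called. Mdm4, a p53 inhibitor, was at 3019 to 4066 in Yaf2wt and 1734 to 2520 in Yaf2kd, a difference of -0.65 ± 0.13 that did not pass (limma adjusted p 0.281).

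Regulators known to act at the Ink4a-Arf locus gave 0 calls among 20, with a median of -0.07 in both comparisons. Bmi1, the Polycomb subunit best known for repressing Cdkn2a, was at 232 to 358 without OHT and 168 to 223 with it (-0.59 ± 0.22, limma adjusted p 0.538). Tbx3, a repressor of the locus, differed by 0.59 ± 0.15 with OHT and by -0.70 ± 0.14 for Yaf2kd minus Yaf2wt, and both missed the threshold (limma adjusted p 0.297 in each). Cbx7, another Polycomb subunit that represses the locus, differed by -0.54 ± 0.16 for Yaf2 status (limma adjusted p 0.587). The Polycomb subunit Cbx2 differed the other way, at 383 to 389 in Yaf2wt and 510 to 613 in Yaf2kd (0.50 ± 0.19, limma adjusted p 0.717). For Yaf2 status 9 of the 20 were higher and 11 lower. Of 10 genes of growth signals that cyclin D genes read out, 0 were called, with medians of -0.06 and -0.11. Their difference of OHT effects was below 0 for 10 of 10, with a median of -0.27 beside 0.03 over all genes and 0 called. It was above 0 for 53.3% of all genes, for 15 of 19 fibroblast markers and for 6 of 12 ES cell markers. All 10 values subtract the OHT difference of the same single Yaf2wt clone, so they are not 10 separate results.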

How the data were processed

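The authors' deposited table holds linear intensity per probe set. Affymetrix Expression Console and RMA appear in the submitters' processing notes, with no role or version stated there. All 6 arrays hold the same sorted values (0.140 to 45795). The series text speaks of 430A 2.0 arrays, but 45101 probe sets are in the table. Of these, 34958 carry 1 gene symbol in the platform annotation, 932 several and 9211 none.

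After leaving out 64 array controls, log2 intensity of 45037 probe sets was fitted with lmFit and eBayes (intensity trend) in limma 3.58.1 (R 4.3.3). P-values were adjusted by Benjamini-Hochberg over all of them, with a threshold of 0.05. The trend was used because the spread between replicates depends strongly on signal. The OHT effect was the OHT term on 6 arrays with Yaf2 status as covariate, the Yaf2 effect from 3 clone means (2 against 1), and the difference of OHT effects from the interaction over 4 groups, where the single Yaf2wt array of a group borrows the spread of the Yaf2kd arrays. Through eBayes the spread behind each p-value joins that of these few clones with that of other probe sets of similar signal (prior df 6.63 in the OHT fit). In the Yaf2 fit only the 2 Yaf2kd clone means give a spread between clones. The p-values and intervals of that fit thus rest largely on other probe sets. The number of clones still limits the precision. The fits were run on simulated arrays with known changes and noise drawn separately for each array. Since that noise holds no differences between clones, the simulation cannot check the Yaf2 comparison against them.

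The clone numbers in the labels pair each OHT+ array with an OHT- array. Deviations of the Yaf2kd clones from their group means correlated at 0.03 between the pairs over all probe sets and at 0.15 over the brighter ones.

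The rule for naming genes took every member probe set. From each list it took genes that passed, the 2 largest differences in each direction, or all genes of lists under 5, and not all of these are printed. Cks1b was named outside this rule, for its weight in a sum. It also took the 2 genes most correlated with each of the 3 brighter members of widest range. Members and lists were chosen with earlier results of these data known. Gene identifiers matched the RefSeq table (GRCm38.p6) for 99.4% of probe sets with 1 symbol. The array files name no build, so positions are those of that annotation and not of probes.

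Alternatives were no intensity trend, the dimmer probe sets left out, a pseudocount of 16, centring on control genes, 1 probe set per gene, a clone block, and each array or clone left out. Centring and leaving out clones for the counts of arrays that do not overlap were chosen after seeing the data.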

Additional observations from a re-analysis of the deposited data

Results flagged for a closer look

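For 6 of the 21 member probe sets (28.6%) both Yaf2kd clones differed with OHT in 1 direction and clone 3031 in the other, as did 21.4% of all probe sets. The difference of the OHT effects (Yaf2kd minus Yaf2wt, log2) was tested with limma and passed for none of them (adjusted p 1.0 in each). It was 1.10 for Ccne1 1441910_x_at, the probe set with the smallest unadjusted p of the 6 (0.00183). For cyclin D2 it was 0.32 (1416122_at), 0.43 (1434745_at) and 1.26 (1416124_at, dim). For cyclin D3 it was 0.25 (1415907_at, where clone 3031 lay at -0.00) and -1.54 (1438805_at, dim). No group holds 4 or more arrays, so no array was tested for standing apart within its group.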

How the results depend on the processing

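Precision is limited by 3 clones, by a single Yaf2wt clone and, for 6 of the 21 probe sets, by signal below the middle of the array. No member was called in any comparison under any alternative run. The OHT count over the array went from 63 to 0 with no intensity trend (lowest adjusted p 0.296), 97 with dimmer probe sets left out and 101 with the clone as a replicate block. With 1 array left out it ranged from 14 (Yaf2wt OHT+) to 53 (OHT- of clone 3087). Without clone 3031 it was 18, without clone 3086 205 and without clone 3087 293. The Yaf2 count and the count for the difference of OHT effects were 0 in each fit that has a test, the replicate block included. At an unadjusted p under 0.05 the Yaf2 comparison had 2884 probe sets, and 4680 with clone as a random block. The difference of OHT effects had 1077, and 1271 with the block. Leaving out a Yaf2kd clone leaves the Yaf2 effect as a value with no test.

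Of 418 recomputed values of 38 single member results, 402 kept their direction and 16 turned, in 9 results, none of them called. Many of the 418 could not turn, since no intensity trend, fewer probe sets or a clone block leave the difference itself unchanged. For OHT, leaving out either Yaf2wt array or clone 3031 gives 1 and the same difference, that of the Yaf2kd clones. The 402 thus do not measure stability. Centring on control genes turned the Yaf2 difference of Ccnd1 1448698_at to -0.033 and took the probe sets with all Yaf2kd arrays above Yaf2wt from 7 to 3. Leaving out clones took those with all OHT+ arrays below OHT- to 4 (without 3031), 5 (without 3086) or 2 (without 3087). With 1 array left out, the OHT difference ranged from -0.16 to 0.41 for Cdkn2a, from -0.015 to 0.21 for Ccnd2 1416122_at, from -0.92 to 0.92 for Ccnd3 1444323_at and from -0.0045 to 0.54 for Ccne1 1441910_x_at. Without clone 3086 it was -0.31 for Cdkn2a, 1.57 for Ccnd3 1444323_at and -0.044 for Ccne1 1441910_x_at, and the Yaf2 difference of Cdkn1b 1434045_at was 0.15. The difference of OHT effects ranged from -0.79 to 0.21 for Cdkn2a, from -0.29 to 0.17 for Cdkn2c and from -0.051 to 0.15 for Ccnd1 1417420_at. The causes were not tested.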
